A study of Mus musculus with 18 samples.

Results

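The kidneys of male offspring of dams fed a low protein diet were compared with those of male offspring of dams fed a normal protein diet. They make up 10 of the 18 libraries of the series: 5 LP males and 5 NP males, taken by the diet and sex in their labels. RNA was poly(A)-selected and sequenced as 1 library per mouse. All mice were wild-type offspring of the outbred CD-1 stock. LP dams ate a diet with 8% protein and NP dams one with 18% protein through pregnancy and nursing. The study states that the LP diet holds more sucrose, which keeps the diets isocaloric. From weaning, offspring of both groups ate the 18% diet, and they were 6 wk old when the kidneys were taken. All of them had received cationic ferritin, an iron-protein tracer for imaging of glomeruli. On the source of RNA the labels differ, since one field names part of the left kidney and another a whole kidney. The labels do not give the dam of each mouse, so each mouse was taken as 1 replicate, and littermates and diet cannot be told apart where they coincide.

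A kidney filters blood in glomeruli, whose filter is held by podocytes, and then reabsorbs most of the filtrate along the proximal tubule, the loop of Henle, the distal convoluted tubule, the connecting tubule, and the collecting duct. Each segment has its own set of transporters, so transcripts of such genes can be grouped by segment. Nephrons form in the mouse from midgestation until shortly after birth, under signals such as GDNF acting through its coreceptor GFRA1, retinoic acid, and Wnt. A kidney short of nephrons is not able to make new ones later.

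Between 14050486 and 21794303 reads per male were counted on genes, and 13181 genes had at least 10 counts in each of the 10 libraries. Values below are CPM, counts scaled to library size with TMM factors. Log2 fold changes are LP minus NP from edgeR's quasi-likelihood test, with a standard error (SE). Genes with an adjusted p under 0.05 that differ 1.5-fold or more are called DEGs. Markers of proximal tubule, thick ascending limb, podocytes, distal convoluted tubule, and collecting duct were present in all 10 libraries, as in *Slc34a1* at 5815 to 7464 CPM and *Umod* at 1357 to 2600 CPM. Markers of adrenal cortex and muscle were at or near 0. Fat cell genes were high in 3 libraries: *Plin1* was at 12.1 CPM in LP male 4, 7.95 in NP male 2, and 9.90 in NP male 3, and at most 0.350 in the other 7. These 3 libraries also had high urothelial genes, with *Upk3a* between 8.89 and 19.3 CPM. Urothelial genes were not high in them alone. LP male 3, without high fat cell genes, had *Upk3a* at 7.75 CPM. Its *Upk1b*, at 9.81 CPM, was above the 9.24 CPM of NP male 2. Collecting duct and medullary genes varied within both diets, with *Aqp2* between 158 and 649 CPM and the urea transporter *Slc14a2* between 11.7 and 94.4 CPM. In tissue RNA, fewer cells of a type and less RNA per cell cannot be told apart.

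Over the 13181 genes, the median log2 fold change was -0.004 and the SD was 0.21, with the 5th percentile at -0.28 and the 95th at 0.36. There were 5 DEGs, or 0.0379% of genes tested, and all 5 were lower in LP males. DESeq2's Wald test gave 15 on the same genes, and the study, which used DESeq2, reported genes in both directions. At an unadjusted p under 0.05, 292 genes (2.22%) were higher and 214 genes (1.62%) were lower in LP males. Together they were 506 of the 13181 genes, fewer than the 0.05 share such a threshold gives where no gene differs. These unadjusted calls serve below only to describe lists beside the same shares over all genes. The groups did not overlap for 31 genes with all LP males on top (0.235%) and for 52 genes with all NP males on top (0.395%). Together they were fewer than the 0.00794 share that exact permutation gives for groups without overlap, in either direction, where no gene differs. A lack of overlap in a single gene is thus given below as a description, and is not by itself a sign of a difference. Long noncoding RNAs leaned to one side: 31 of 761 tested were lower and 6 were higher at an unadjusted p under 0.05. With 1 library left out, 24 to 50 were lower and 3 to 12 were higher, with 50 lower without LP male 1. The higher count was 11 without LP male 3, 12 without LP male 4, 10 without NP male 5, and 3 without NP male 3. With offsets for gene length and GC content, 28 were lower and 13 higher.

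*Gfra1* encodes the coreceptor through which GDNF activates RET in the branching ureteric bud. In LP males it was at 3.08, 3.91, 2.43, 2.54, and 2.77 CPM, and in NP males at 25, 24.6, 55.2, 52.8, and 20.4 CPM. The groups were far apart, and the NP males split into 3 near 20 to 25 CPM and 2 above 50 CPM, while the LP males were within a narrow span. *Gfra1* fell by 3.60 on the log2 scale (SE 0.32, adjusted p = 0.000446, edgeR).

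*Aldh1a1* encodes a retinal dehydrogenase that makes retinoic acid. It was at 5.11, 5.98, 8.65, 8.14, and 5.64 CPM in LP males and at 32.0, 21.1, 28.7, 25.9, and 31.9 CPM in NP males, with no overlap. It fell by 2.05 on the log2 scale (SE 0.17, adjusted p = 0.000446, edgeR). Its neighbor *Aldh1a7*, a close relative, lies 44.3 kb away and went the other way, with 7.47 ± 1.92 CPM in LP males against 4.87 ± 2.16 CPM in NP males (SD, n = 5 each). That difference did not pass adjustment (log2 fold change 0.62, SE 0.28, unadjusted p = 0.0483, adjusted p = 1.000, edgeR), and the groups overlapped. Both genes are alike in sequence, and reads that align equally well to both are not counted.

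*Dvl1* encodes a Dishevelled protein that relays Wnt signals inside the cell. Its values were 82.6, 75.8, 81.8, 89.6, and 81.5 CPM in LP males and 110, 132, 120, 132, and 133 CPM in NP males. It had the smallest fold of the 5 DEGs and the tightest groups, and it fell by 0.61 on the log2 scale (SE 0.08, adjusted p = 0.0297, edgeR). *Tbc1d9*, a TBC-domain gene, was at 5.81, 4.91, 3.11, 7.92, and 6.81 CPM in LP males and at 15.7, 15.7, 19.2, 13, and 19.5 CPM in NP males. It fell by 1.53 (SE 0.22, adjusted p = 0.0367, edgeR), and the groups did not overlap.

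*4122401K19Rik* is a long noncoding RNA of 1 locus on chromosome 19, from 12573015 to 12575784 of GRCm39. It was at 13.9, 9.82, 10.6, 5.77, and 7.72 CPM in LP males and at 27.4, 23.9, 23.3, 27.8, and 23.0 CPM in NP males. It fell by 1.40 (SE 0.20, adjusted p = 0.0339, edgeR). It overlaps the coding gene *A330040F15Rik* on the other strand, at 4.31 CPM, and the library did not keep the strand. With each library left out in turn, *Gfra1* and *Aldh1a1* were DEGs in 10 of 10 fits, and *Dvl1*, *Tbc1d9*, and *4122401K19Rik* in 2 of 10 each, with the same direction throughout. *Dvl1* was kept without LP male 4 or NP male 1, *4122401K19Rik* without LP male 1 or LP male 4, and *Tbc1d9* without LP male 3 or LP male 4.

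**Figure D1:**
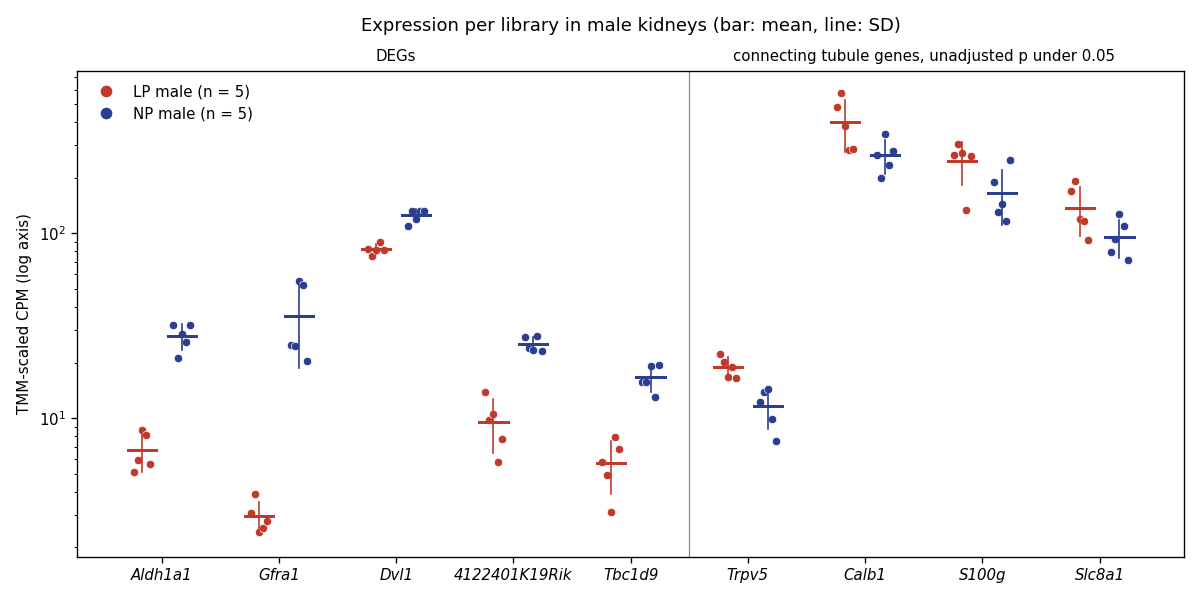
CPM (log axis) of the 5 DEGs and of 4 connecting tubule genes in each of the 5 LP males (red) and 5 NP males (blue), with the mean as a bar and the SD as a vertical line. For the 5 DEGs and *Trpv5* the groups do not overlap, whereas for *Calb1*, *S100g*, and *Slc8a1* the LP mean is higher and the groups overlap.

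RefSeq promoters (GRCm38.p6) were given for 4 of the 5 DEGs, with 2 start sites for *Aldh1a1*. The 250 bases before each start are shown because these are the genes that fell together, 5′ to 3′ on the strand of the gene. Capitals mark matches, on either strand, to any of 4 motifs. The first is AGGTCA, a site bound by retinoic acid receptors. The second is TATAAA, the TATA box. The third, the CCAAT box, has the letters of its name. The last is GGGCGG, the GC box. Neighboring GC boxes can share letters.
Gfra1, chr19:58455399-58455648, minus strand: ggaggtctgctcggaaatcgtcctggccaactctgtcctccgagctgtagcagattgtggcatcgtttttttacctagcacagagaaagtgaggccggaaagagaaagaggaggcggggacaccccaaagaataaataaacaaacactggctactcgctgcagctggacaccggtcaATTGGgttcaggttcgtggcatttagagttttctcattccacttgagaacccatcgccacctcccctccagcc
Aldh1a1, chr19:20601718-20601967, plus strand: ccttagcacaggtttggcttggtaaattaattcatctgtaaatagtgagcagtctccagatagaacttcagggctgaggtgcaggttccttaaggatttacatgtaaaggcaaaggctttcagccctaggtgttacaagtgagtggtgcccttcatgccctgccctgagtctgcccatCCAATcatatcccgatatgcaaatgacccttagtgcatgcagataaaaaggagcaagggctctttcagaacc
Aldh1a1, chr19:20492333-20492582, plus strand: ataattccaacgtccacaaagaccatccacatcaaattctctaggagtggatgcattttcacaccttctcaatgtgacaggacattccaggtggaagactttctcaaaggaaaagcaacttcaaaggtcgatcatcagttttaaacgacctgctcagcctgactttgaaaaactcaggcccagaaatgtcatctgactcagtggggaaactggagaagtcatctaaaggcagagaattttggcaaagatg
Dvl1, chr4:155847152-155847401, plus strand: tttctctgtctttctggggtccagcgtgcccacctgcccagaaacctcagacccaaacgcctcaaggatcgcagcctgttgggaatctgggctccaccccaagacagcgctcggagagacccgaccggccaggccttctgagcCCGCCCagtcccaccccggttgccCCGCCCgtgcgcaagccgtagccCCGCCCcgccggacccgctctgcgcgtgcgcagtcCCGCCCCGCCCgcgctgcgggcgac
Tbc1d9, chr8:83165102-83165351, plus strand: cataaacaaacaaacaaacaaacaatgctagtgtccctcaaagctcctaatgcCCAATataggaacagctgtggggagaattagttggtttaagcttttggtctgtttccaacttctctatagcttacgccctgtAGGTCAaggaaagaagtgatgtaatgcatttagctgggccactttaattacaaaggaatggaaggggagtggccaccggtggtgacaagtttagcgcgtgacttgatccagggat

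The *Dvl1* window held 5 GC boxes and 26 CpG, more CpG than 90.4% of the 32851 promoters searched. The *Aldh1a1* window with CCAAT held 1 CpG, and 7.87% of promoters had fewer. AGGTCA was found only in the *Tbc1d9* window, and 14% of all promoters hold it. CCAAT was found in the windows of *Gfra1*, *Tbc1d9*, and 1 of the 2 of *Aldh1a1*, against 33.8% of all promoters. None of the 5 windows held TATAAA, which 12.4% of promoters hold, and GGGCGG is in 32.7%. No motif was shared by all 4 genes.

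By chromosome position, 3 of the 5 DEGs, *Gfra1*, *Aldh1a1*, and *4122401K19Rik*, lie on chromosome 19, which holds 496 or 3.76% of the genes tested. They are spread along it: *Aldh1a1* spans 20469539 to 20622825 and *Gfra1* 58223212 to 58444346 of GRCm39. At an unadjusted p under 0.05, chromosome 19 had 18 lower genes (3.63%) and 12 higher genes (2.42%). Its share of lower genes was the highest of the 20 chromosomes with more than 100 tested genes, and with 1 library left out it was 2.61% to 3.83%. The higher genes numbered 19 without LP male 3, and 7 without LP male 1 or NP male 4. The share of lower genes ranked first in 8 of 10 fits, and was not first without LP male 3 or NP male 3. The chromosome as a whole was not shifted, with a median log2 fold change of -0.001. Over the autosomes and the X chromosome the medians lay between -0.016 and 0.014. The X chromosome had 11 higher and 3 lower genes of 390. The 13 genes of the mitochondrial genome and the 5 of the Y chromosome had no call in either direction.

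**Figure D2:**
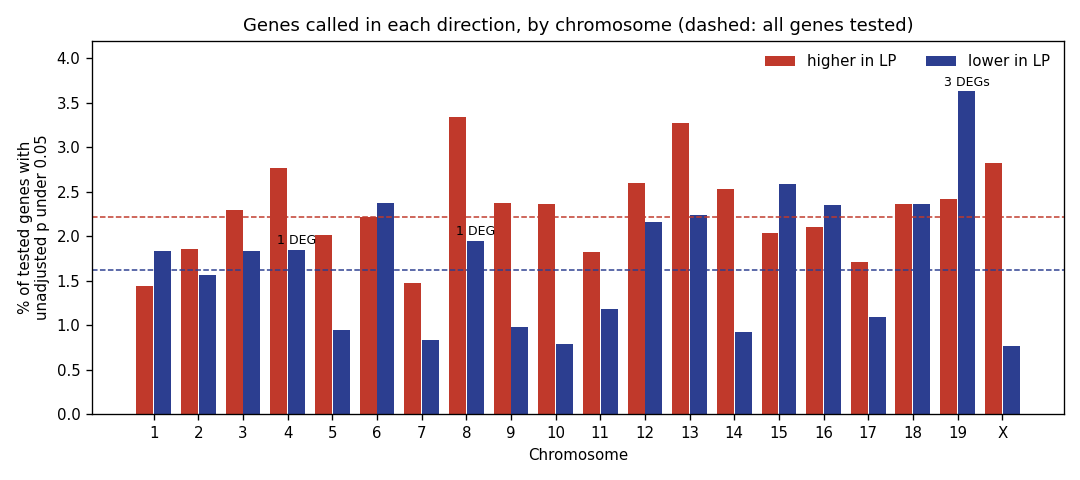
Percent of the tested genes of each chromosome that were higher (red) or lower (blue) in LP males at an unadjusted p under 0.05, with the shares over all genes tested as dashed lines, 2.22% and 1.62%. Chromosome 19 has the tallest bar for lower genes, at 3.63%, and holds 3 of the 5 DEGs.

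Called genes were next to each other more often than the share over all genes. Of the 213 lower genes with a next tested gene on the chromosome, 11 (5.16%) had a next gene that was also lower, against 1.62% over all genes. Of the 292 higher genes, 13 (4.45%) had a next gene that was also higher, against 2.22% over all genes. Of these pairs, 3 of the lower and 3 of the higher overlap on the genome. There, reads that fall on both genes were left out, and the other reads cannot be assigned by strand. Several others are pairs of related genes, such as *Cyp4a14* with *Cyp4a10*, *Col6a2* with *Col6a1*, and *Nat8f4* with *Nat8f1*. *Col4a1* and *Col4a2*, also related, are among the pairs that overlap. Neighbors are not independent, so these shares are given with no test.

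Of the 34 tested neighbors of *Dvl1* within 500 kb, 19 were below 0, and the median log2 fold change was -0.02. At an unadjusted p under 0.05, 3 were lower and 1 was higher, against 1.62% lower and 2.22% higher over all genes. The next 2 tested genes after it, *Cptp*, which encodes a ceramide-1-phosphate transfer protein, and *Ints11*, the catalytic subunit of the Integrator complex, were both lower. *Cptp* was at 19.5, 22.8, 31.1, 36.4, and 25 CPM in LP males and at 43, 46.9, 38.4, 53, and 48.9 CPM in NP males. *Ints11* was at 20.6, 20.1, 22, 21, and 22.7 CPM in LP males and at 27.9, 25.4, 24.2, 29.8, and 26.4 CPM in NP males. *Cptp* lies 0.005 kb from the end of *Dvl1* on the other strand, and reads past a gene's end cannot be assigned without strand. The groups did not overlap for either gene, and neither passed adjustment in edgeR (log2 fold change -0.77, SE 0.16, adjusted p = 0.562 for *Cptp*, and -0.33, SE 0.09, adjusted p = 1.000 for *Ints11*).

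Farther along chromosome 4, *Noc2l* (log2 fold change -0.26, SE 0.09) was also lower in every LP male, while *Vwa1*, an extracellular matrix gene, was higher (log2 fold change 1.58, SE 0.54). *Vwa1* was at 186, 273, 377, 90.4, and 303 CPM in LP males and at 183, 23.3, 128, 34.6, and 42.7 CPM in NP males, with wide and overlapping groups. *Prxl2b*, a prostamide and prostaglandin F synthase gene about 1 Mb before *Dvl1*, was at 17.4, 14.7, 7.01, 52.8, and 12.6 CPM in LP males and 73.9, 118, 58.5, 108, and 101 CPM in NP males. In it, LP male 4 stood apart from the other LP males and was still below every NP male (log2 fold change -2.13, SE 0.45, adjusted p = 0.562, edgeR). In the 1355 kb from *Prxl2b* to *Noc2l*, a stretch picked after these values were seen, 44 genes were tested. Of them, 5 (11.4%) had all LP males under all NP males, against 0.395% over all genes. Both genes at the ends of the stretch are among these 5. The median log2 fold change of the 44 genes was -0.04.

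The other DEGs had fewer tested neighbors. Within 500 kb, *Gfra1* had 2 tested neighbors, at log2 fold changes of -0.05 and 0.32. *Aldh1a1* had 2, both above 0, and *Tbc1d9* had 11, of which 6 were below 0 and *Rnf150* and *Adgre5* were higher at an unadjusted p under 0.05 (log2 fold changes 0.81, SE 0.30, and 0.42, SE 0.19). *4122401K19Rik* had 9, and 2 of them were lower. The nearer, *Gm4952*, begins 1.51 kb after it on the same strand and was at 4.51 ± 1.95 CPM in LP males against 10.2 ± 4.02 CPM in NP males (SD, n = 5 each) (log2 fold change -1.17, SE 0.34, adjusted p = 1.000, edgeR). The other, *Keg1*, an abundant kidney gene, was at 2056 ± 343 CPM (SD, n = 5) against 2474 ± 175 (SD, n = 5).

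Among the nephron segments, the connecting tubule list had the highest median. This segment, between distal convoluted tubule and collecting duct, fine-tunes calcium excretion through an apical channel, a shuttle protein in the cytosol, and exchangers on the basal side. All 7 listed genes were tested and all 7 were higher in LP males, with a median log2 fold change of 0.58 against -0.004 over all genes. At an unadjusted p under 0.05, 4 of 7 (57.1%) were higher, against 2.22% over all genes, and 0 were DEGs.

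*Trpv5*, the apical calcium channel, was at 22.3, 20.2, 16.7, 18.9, and 16.5 CPM in LP males and at 12.2, 13.9, 14.4, 9.91, and 7.55 CPM in NP males, without overlap (log2 fold change 0.70, SE 0.17, adjusted p = 0.890, edgeR). *Calb1*, the calcium-binding shuttle calbindin-D28k, was at 481, 577, 379, 284, and 286 CPM in LP males and at 265, 199, 345, 233, and 279 CPM in NP males. LP males 1 and 2 were above all others, and LP males 4 and 5 lay within the range of the NP males (log2 fold change 0.60, SE 0.21, adjusted p = 1.000, edgeR). *S100g*, calbindin-D9k, was at 265, 306, 271, 134, and 263 CPM in LP males and at 190, 130, 144, 116, and 249 CPM in NP males, with LP male 4 down among the NP males (log2 fold change 0.58, SE 0.24). *Slc8a1*, the sodium-calcium exchanger NCX1, was also higher (log2 fold change 0.52, SE 0.21), and LP males 1 and 2 were again the highest, at 170 and 191 CPM.

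The other 3 members were not called. They were *Trpv6*, a second calcium channel (log2 fold change 0.92, SE 0.66), *Klk1*, kallikrein (0.26, SE 0.18), and *Atp2b1*, a calcium pump (0.09, SE 0.13). The mean log2(CPM + 1) over the 7 genes ranged from 6.49 to 6.70 in LP males and from 5.98 to 6.23 in NP males, with no overlap. With 1 library left out, the median was 0.44 to 0.64 and all 7 genes stayed above 0, while 2 genes were called without LP male 1 or without LP male 2. In the collecting duct, 12 principal cell genes were tested and the median was 0.06. At an unadjusted p under 0.05, *Npnt* was higher and the water channel *Aqp3* was lower. Each was 8.33% of the list, against 2.22% higher and 1.62% lower over all genes. Of the 12 genes, 0 were higher without LP male 4, LP male 5, or NP males 1 to 4. Without NP male 5, 2 were higher and 0 lower.

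A list of calcium, phosphate, and vitamin D genes that shares 5 genes with connecting tubule had a median of 0.23 over 20 tested, and 18 of 20 were above 0. At an unadjusted p under 0.05, 0 were lower and 6 (30.0%) were higher, against 2.22% over all genes. Apart from the 4 genes above, the higher ones were *Cldn2*, a pore for cations in the proximal tubule (log2 fold change 0.22, SE 0.09), and *Kl*, the FGF23 coreceptor klotho (0.25, SE 0.12). *Cldn2* was at 836, 717, 874, 709, and 764 CPM in LP males and at 714, 619, 674, 684, and 662 CPM in NP males, where NP male 1 reached the lower LP males. The enzyme genes of vitamin D were not called and had wide errors: *Cyp27b1*, which activates it, had a log2 fold change of 1.10 (SE 0.58), and *Cyp24a1*, which degrades it, of -0.78 (SE 0.50). The phosphate transporter *Slc34a1* was at 6447 ± 589 CPM (SD, n = 5) and 6032 ± 178 (SD, n = 5). With 1 library left out, 2 to 6 genes of the list were called higher, with 2 without LP male 1 and 3 without LP male 2.

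The podocyte list was mostly above 0. All 19 genes were tested, 18 were above 0, and the median was 0.23. At an unadjusted p under 0.05, 3 (15.8%) were higher, against 2.22% over all genes. *Podxl*, which encodes the charged surface protein podocalyxin, was at 138, 133, 101, 135, and 130 CPM in LP males and at 86.9, 110, 115, 118, and 103 CPM in NP males. LP male 3 stood below the other 4, which were above every NP male (log2 fold change 0.26, SE 0.11). For *Synpo*, which encodes an actin-bound protein of the foot process, the log2 fold change was 0.35 (SE 0.13). The slit diaphragm gene *Nphs1* was not called (0.23, SE 0.17). The count depended on single libraries: 1 was called without LP male 1, 2, or 4, and 5 without LP male 3 or NP male 3. With all 4 groups in 1 model, 0 were called. The mean log2(CPM + 1) of the list overlapped between the groups, at 4.28 to 4.77 in LP males and 4.19 to 4.55 in NP males.

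The proximal tubule lists pointed different ways. In the first segment (S1), the median over 12 tested was 0.15, and the basal amino acid transporter *Slc7a8* was higher at an unadjusted p under 0.05 (log2 fold change 0.71, SE 0.29). It was the 1 call of the list, 8.33% against 2.22% over all genes. The list had 0 calls without LP male 1, LP male 4, NP male 1, or NP male 5. In the second (S2), 7 of 8 tested were below 0 with a median of -0.22, and *Cyp4b1* and *Slco1a1* were lower. *Cyp4b1*, a cytochrome P450 that is abundant in male mouse kidney, was at 3394, 4672, 4284, 3113, and 4217 CPM in LP males and at 5329, 3970, 5679, 5175, and 5127 CPM in NP males. Only NP male 2 fell among the LP males (log2 fold change -0.36, SE 0.14). For *Slco1a1*, an organic anion transporter, the log2 fold change was -0.40 (SE 0.17). Both are also in a list of androgen-responsive tubule genes. In it, 13 of 15 tested were below 0 (median -0.15), and 2 (13.3%) were lower, against 1.62% over all genes. For S2, 0 genes were called without LP male 1 or without NP male 3, 1 without LP male 2, LP male 4, or NP male 4, and 4 without LP male 3 or NP male 2. For the androgen list, 0 were called lower without LP male 1, LP male 4, or NP male 3, 1 without LP male 2 or NP male 4, 3 without NP male 2, and 5 without LP male 3.

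In the third segment (S3), 0 of 10 tested were called and the median was -0.01. The thick ascending limb had 0 of 14 called and a median of 0.01, with *Umod* at a log2 fold change of 0.03 (SE 0.18). In the distal convoluted tubule 8 of 11 were above 0 (median 0.15), and the magnesium channel *Trpm6* was higher at an unadjusted p under 0.05, at 29.6, 19.8, 14.7, 14.1, and 11.1 CPM in LP males and 11.6, 10.8, 11.8, 14.4, and 7.88 CPM in NP males. LP males 1 and 2 were the highest (log2 fold change 0.65, SE 0.25). This 1 call was 9.09% of the list, against 2.22% over all genes. The list had 0 calls without LP male 1 or NP male 5 and 2 without NP male 4. Of 16 intercalated cell genes, 1 (6.25%) was higher, *Oxgr1*, the receptor for 2-oxoglutarate (0.39, SE 0.15), and 0 were lower. None was higher without LP male 2, NP male 1, or NP male 5, and 1 was lower without NP male 3. Endothelial genes had 0 of 19 called (median 0.06).

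**Figure D3:**
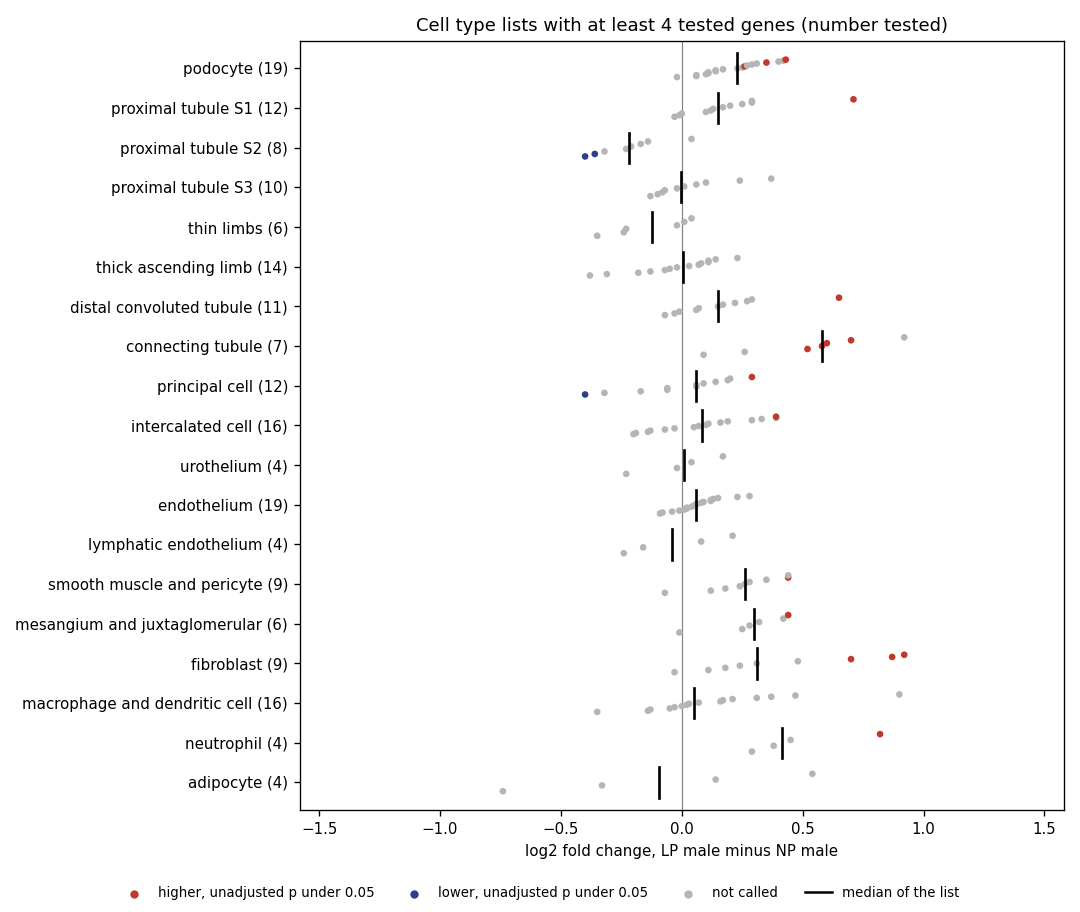
Log2 fold change (LP male minus NP male) of each tested gene in lists of nephron segments and other cells, for lists with at least 4 tested genes, with the median of each list as a black line and the number tested in brackets. Of the lists drawn, the connecting tubule has the highest median, 0.58, and proximal tubule S2 the lowest, -0.22.

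By number, genes of the extracellular matrix had more unadjusted calls than any other list. By share, lists such as connecting tubule (57.1%), fibroblast (33.3%), and calcium (30.0%) were above it. Fibroblasts and mesangial cells lay down fibrillar collagens, and all epithelia rest on basement membrane made of laminins and type IV collagen. Of 62 listed genes 59 were tested, 51 were above 0, and the median was 0.25. At an unadjusted p under 0.05, 0 were lower and 15 (25.4%) were higher, against 2.22% over all genes, and 0 were DEGs. The higher genes included fibrillar collagens (*Col1a1*, *Col1a2*, *Col3a1*, *Col5a1*), the 3 chains of type VI collagen (*Col6a1*, *Col6a2*, *Col6a3*), basement membrane genes (*Col4a1*, *Col4a2*, *Col15a1*), the glycoproteins *Fn1* and *Fbn1*, the proteases *Mmp2* and *Mmp14*, and the inhibitor *Timp1*.

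*Col5a1*, a chain of the collagen that seeds fibrils, was at 15.8, 16.4, 11, 21.3, and 11.6 CPM in LP males and at 7.94, 6.61, 8.48, 9.52, and 8.44 CPM in NP males. The groups did not overlap (log2 fold change 0.89, SE 0.19, adjusted p = 0.562, edgeR). *Timp1*, a secreted inhibitor of matrix proteases, did not overlap either, with 3.57, 5.26, 2.95, 3.32, and 3.46 CPM in LP males and 2.56, 2.40, 1.55, 1.17, and 2.63 CPM in NP males (log2 fold change 0.84, SE 0.26). *Col1a1*, a chain of type I collagen, was at 30.9, 42.0, 31.1, 55.8, and 14.2 CPM in LP males and at 14.2, 15.4, 30.8, 12.1, and 19.7 CPM in NP males. LP male 5 was thus as low as the NP males, and NP male 3 as high as LP males 1 and 3 (log2 fold change 0.92, SE 0.33). *Col6a1* had a log2 fold change of 0.63 (SE 0.17) and *Fn1* of 0.49 (SE 0.17).

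LP male 4, one of the 3 libraries with fat cell genes, had the highest values of *Col1a1*, *Col3a1*, and *Col5a1*. Without it, 7 matrix genes were called, 41 of 59 were above 0, and the median was 0.09. Without NP male 1, 9 were called, and without LP male 3, 23 were. Without all 3 libraries with fat cell genes, 13 were called and the median was 0.29. Fibroblast genes had a median of 0.31 over 9 tested. In that list *Col1a1*, *Col1a2*, and *Col3a1* were called higher, 33.3% against 2.22% over all genes. There, 0 were called without LP male 4, and 1 without LP male 2, NP male 1, or NP male 4. *Pdgfrb*, the receptor that marks mesangial cells and pericytes, was at 35.2, 32.0, 23.6, 36.5, and 29.4 CPM in LP males and 24.5, 18.3, 18.6, 25.6, and 28.5 CPM in NP males (log2 fold change 0.44, SE 0.15). The mesangium and smooth muscle lists, with this 1 gene called in each (16.7% and 11.1%), had medians of 0.30 and 0.26. Without the 3 libraries with fat cell genes, 0 were called in either. In the mesangium list, 3 were called without LP male 3 and 2 without NP male 5, and in the smooth muscle list 3 without LP male 2, LP male 3, or NP male 2.

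**Figure D4:**
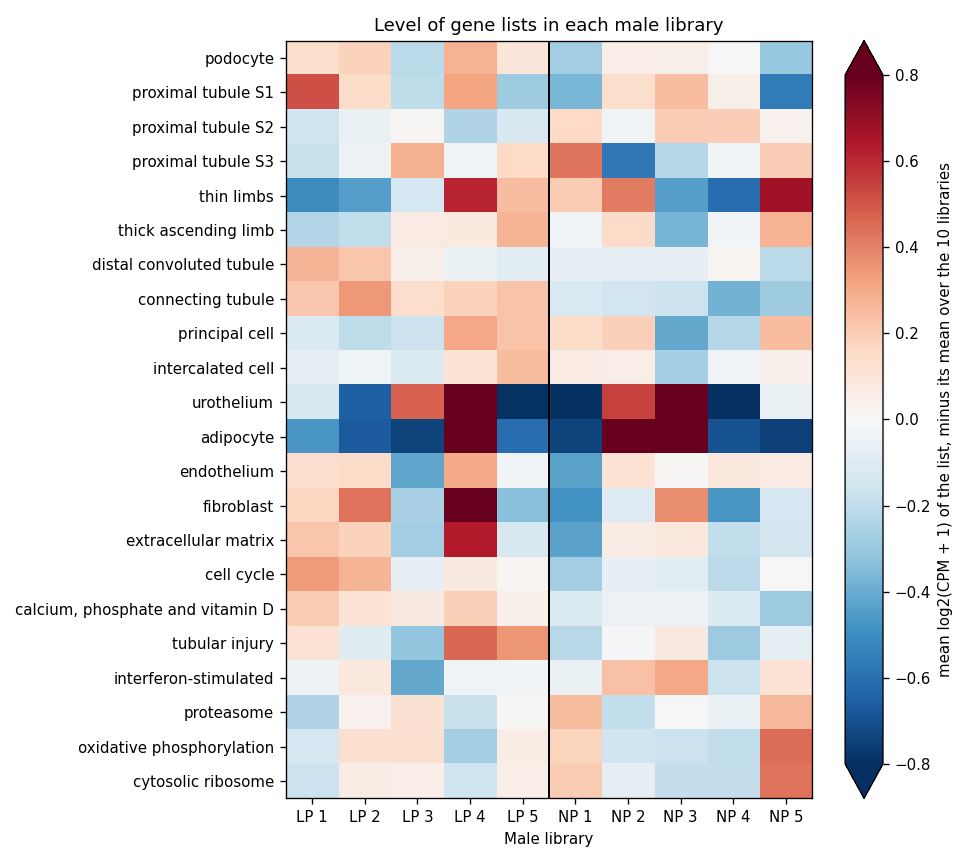
Mean log2(CPM + 1) of each list in each male library, as the difference from its mean over the 10 libraries (red higher, blue lower, colors saturate at 0.8). The connecting tubule and calcium lists are red in the LP males and blue in the NP males, fat cell genes are high in LP 4, NP 2, and NP 3, and the ribosome and oxidative phosphorylation lists are highest in NP 5.

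Cell cycle genes were low and mostly above 0 in their fold change. Of 43 listed, 28 passed the count filter, 24 of these were above 0, and the median was 0.22. At an unadjusted p under 0.05, 5 (17.9%) were higher, against 2.22% over all genes. These were *Mki67*, the proliferation antigen, *Rrm1*, a subunit of ribonucleotide reductase, and *Mcm2*, *Mcm4*, and *Mcm5*, subunits of the helicase that opens DNA for replication. *Mcm4* did not overlap, at 9.24, 5.55, 5.80, 7.57, and 6.07 CPM in LP males and 4.51, 4.68, 4.52, 3.20, and 4.81 CPM in NP males (log2 fold change 0.65, SE 0.19). *Mki67* was at 8.96, 7.90, 3.48, 5.91, and 3.73 CPM against 1.95, 3.80, 5.14, 3.46, and 2.18 CPM, with overlap (log2 fold change 0.85, SE 0.33). LP male 1 was the highest library for both. Without it, 1 gene was called. Without LP male 2 or NP male 4, 3 were called, and without LP male 3 or LP male 5, 8 were.

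Interferon-stimulated genes were mostly below 0. All 36 were tested, 32 were below 0, the median was -0.15, and 6 (16.7%) were lower at an unadjusted p under 0.05, against 1.62% over all genes. They included *Oasl1*, *Ifit1*, and *Cmpk2*, which act against viral RNA or nucleotides, and *Irf7* and *Stat2*, which carry the interferon signal to the genome. *Oasl1* was at 51.1, 89.1, 79.4, 75.6, and 72.3 CPM in LP males and at 107, 98.9, 128, 70.2, and 110 CPM in NP males. NP male 4 was as low as the LP males (log2 fold change -0.49, SE 0.17). *Irf7* had a log2 fold change of -0.40 (SE 0.15). Without the 3 libraries with fat cell genes, 0 were called (6 in all 10 libraries), 23 of 36 were below 0, and the median was -0.05. Without NP male 3, 2 were called, without LP male 3 or NP male 2, 3 were, and without NP male 4, 10 were.

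Lists of abundant housekeeping genes had small shifts and hardly any calls. All 31 proteasome genes were below 0, with a median of -0.11, and 0 were called. Of 74 oxidative phosphorylation genes 65 were below 0 (median -0.06), and of 73 ribosome genes 65 were below 0 (median -0.06), with 0 called in each. Members of one complex are not independent, and the count below 0 is given as a description. The medians of the last 2 lists were 0.07 without NP male 5, and the proteasome median was then -0.04. With 1 surrogate variable or limma-voom they were also above 0, at 0.04 and 0.10 for oxidative phosphorylation and 0.04 and 0.12 for ribosome. Values of these lists were highest in NP male 5. Over all genes, the sixth with the shortest exons had a median of -0.036 and the sixth with the longest had 0.016. With offsets for gene length and GC content, the medians were -0.10 for proteasome, -0.04 for oxidative phosphorylation, and -0.03 for ribosome, and 0.24 for the matrix list. The part of gene length in these lists was not tested further.

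In fatty acid oxidation and its regulator PPAR, the median over 43 tested was -0.03. Yet 4 (9.30%) were higher at an unadjusted p under 0.05, against 2.22% over all genes, and 0 were lower. *Cyp4a14* and *Cyp4a10*, fatty acid hydroxylases that PPAR alpha induces, lie side by side on chromosome 4, and neither overlapped between the groups. *Cyp4a14* was at 20.4, 17.4, 36.1, 14.3, and 18.9 CPM in LP males and at 6.99, 3.80, 13.3, 7.76, and 6.93 CPM in NP males (log2 fold change 1.47, SE 0.31, adjusted p = 0.597, edgeR). *Cyp4a10* was at 243, 229, 223, 214, and 235 CPM in LP males and at 156, 103, 178, 184, and 203 CPM in NP males (0.48, SE 0.15). *Acot1*, a thioesterase, and *Acaa2*, the last enzyme of the mitochondrial cycle, had log2 fold changes of 0.66 (SE 0.24) and 0.30 (SE 0.12). These family members are similar in sequence, so reads may be lost between them. *Ppara* itself and *Cpt1a* were at -0.19 and -0.09 and were not called.

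Of 22 tested amino acid transporters, 17 were above 0 (median 0.11). At an unadjusted p under 0.05, 4 (18.2%) were higher, against 2.22% over all genes. *Slc1a5*, a glutamine transporter, was at 38.9, 33.7, 30.8, 43.1, and 51.6 CPM in LP males and at 30.3, 30.9, 29.1, 26.1, and 28.7 CPM in NP males, and LP male 3 and NP male 2 were almost equal (log2 fold change 0.45, SE 0.13). The others were *Slc7a8*, *Slc6a20a*, a transporter of proline, and *Slc43a2*, a transporter of large neutral amino acids. Without LP male 1 or NP male 5, 1 was called, and without LP male 4, 2 were. Genes of the response to amino acid starvation, targets of ATF4, had 0 of 24 called and a median of -0.06.

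Of 30 genes of sterol and fatty acid synthesis, 3 were higher and 1 was lower at an unadjusted p under 0.05, with a median of 0.04. Among the higher genes of the sterol list was *Srebf2*, a transcription factor that induces sterol genes (log2 fold change 0.25, SE 0.10). In this list, 1 was higher without NP male 3 or NP male 4, 0 were lower without LP male 1, NP male 1, NP male 4, or NP male 5, and 2 were lower without LP male 3 or NP male 2. Of 30 antioxidant genes, 1 (3.33%) was lower, *Gstp1* (-0.60, SE 0.22). Of 24 genes of the heme list, 1 (4.17%) was lower, *Fech*, the last enzyme of heme synthesis. *Fech* was lower in every LP male, at 163 to 172 CPM against 177 to 201 CPM (-0.18, SE 0.07). The antioxidant list had 0 lower without NP male 1, 2 without LP male 4, and 3 without LP male 3 or NP male 2. The heme list had 0 lower without LP male 5 or NP male 2, 3, or 4, 2 without NP male 1, and 3 without LP male 3. The citric acid cycle and glycolysis lists had 0 called of 18 and 25.

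Developmental pathways were described beyond the DEGs in them. In the GDNF, RET, and FGF list 9 of 19 passed the filter, since *Ret*, *Gdnf*, and *Fgf10* were under the count filter, and *Gfra1* was the only one called. *Ret* was at 0.521 ± 0.201 CPM in LP males against 0.771 ± 0.242 CPM in NP males (SD, n = 5 each). The targets *Etv4* and *Etv5* had log2 fold changes of -0.31 (SE 0.27) and -0.03 (SE 0.12). *Fgf10*, which was not tested, was at 0 to 0.70 CPM in LP males and 0.805 to 2.98 CPM in NP males, so the groups did not overlap (exact permutation, 2-sided p = 0.00794, the minimum for groups of 5).

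Of 13 tested retinoic acid genes, *Aldh1a1* was lower, and *Aldh1a2*, the embryonic kidney's main synthase, *Aldh1a7*, and the receptor *Rara* were higher at an unadjusted p under 0.05. That was 7.69% lower and 23.1% higher, against 1.62% and 2.22% over all genes. *Aldh1a2* was at 5.53, 6.26, 2.48, 4.24, and 3.83 CPM in LP males and at 3.09, 2.16, 3.28, 3.06, and 2.57 CPM in NP males (log2 fold change 0.65, SE 0.25), with LP male 3 within the NP range. For *Rara* the log2 fold change was 0.32 (SE 0.11). With 1 library left out, 1 to 3 of these genes were called higher, with 1 without LP male 2 or NP male 2, and *Aldh1a1* was lower in all 10 fits.

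Of 33 tested Wnt genes, *Dvl1* was lower, and the receptor *Fzd7* and the secreted modulator *Sfrp1* were higher (0.29, SE 0.11, and 0.26, SE 0.10). These were 3.03% lower and 6.06% higher, against 1.62% and 2.22% over all genes. Without LP male 4, 0 Wnt genes were called higher, as with all 4 groups in 1 model, and 1 was without LP male 1, NP male 1, or NP male 5. Without NP male 5, 2 were lower. The other Dishevelled genes, *Dvl2* and *Dvl3*, were at -0.02 (SE 0.15) and -0.16 (SE 0.10). In Notch, *Notch2* and *Heyl* were higher (0.30, SE 0.12, and 0.50, SE 0.22), and 12 of 15 were above 0. The 2 called genes were 13.3% of the list, against 2.22% over all genes. In that list, 0 were called without LP male 4, where 9 of 15 were above 0 and the median was 0.01, and 0 without NP male 5 or with the replicate block. Without LP male 1, 2, or 5 or NP male 1, 3, or 4, 1 was called. Among 28 kidney development factors, 1 (3.57%) was lower, *Pax8* (-0.34, SE 0.10), and 2 (7.14%) were higher, among them *Foxd1*. Of these factors, 1 was higher without LP male 2 or NP male 2, and 2 were lower without LP male 3. BMP and TGF-beta genes had 0 of 28 called and a median of -0.00. Of 23 tested oxygen-sensing genes, 1 (4.35%) was called higher, and the median was 0.00. It was *Egln3* (0.79, SE 0.24), where NP male 5 reached the LP males. Of 19 tested DNA methylation and Polycomb genes, 2 (10.5%) were higher and 2 (10.5%) were lower, against 2.22% and 1.62% over all genes. The demethylases *Tet1* and *Tet3* were higher (0.77, SE 0.26, and 0.35, SE 0.14). The demethylase *Tet2* and the methyl-CpG reader *Mbd1* were lower (-0.41, SE 0.15, and -0.43, SE 0.15). Of this list, 1 was higher without LP male 1, NP male 1, or NP male 5, and 4 without LP male 5, while 1 was lower without NP male 4. *Tet1* was low, at 1.01 to 1.79 CPM in LP males and 0.619 to 1.17 CPM in NP males.

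Genes of tubular injury had a median of 0.23 over 17 tested. At an unadjusted p under 0.05, 4 (23.5%) were higher, against 2.22% over all genes. *Lcn2*, the injury marker NGAL, was at 12.7, 16.4, 13.3, 33.5, and 60.7 CPM in LP males and at 10.3, 12.7, 12.3, 8.67, and 12.7 CPM in NP males. The difference rested on LP males 4 and 5, and the other 3 were close to the NP males (log2 fold change 1.27, SE 0.39). *Spp1*, osteopontin, was at 503, 460, 319, 573, and 539 CPM against 372, 405, 299, 213, and 370 CPM (0.53, SE 0.19), and *Clu*, clusterin, had a log2 fold change of 0.29 (SE 0.11). *Havcr1*, which encodes the injury marker KIM-1, was not called (-0.39, SE 0.62).

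Glucocorticoid targets had a median of 0.31 over 18 tested. *Lcn2* and *Mt2* were called higher, 11.1% against 2.22% over all genes, while *Fkbp5* and *Sgk1* were at -0.04 (SE 0.17) and -0.07 (SE 0.15). With 1 library left out the median was 0.16 to 0.43, with 5 called without LP male 3 or NP male 3 and 1 without LP male 1, LP male 5, NP male 2, or NP male 5. Without the 3 libraries with fat cell genes, 9 were called and the median was 0.67. *Mt2*, a metallothionein, was at 0.744 to 2.45 CPM in LP males and 0.615 to 1.04 CPM in NP males. Of 21 clock genes, the repressor *Nr1d1* was higher (0.79, SE 0.28), and 2 were lower, among them *Cry1* (-0.73, SE 0.19). These were 4.76% higher and 9.52% lower, against 2.22% and 1.62% over all genes. In that list 4 were lower without NP male 5 and 2 were higher without NP male 2, and 4 were higher without the 3 libraries with fat cell genes. *Cry1* was at 3.36, 5.05, 6.17, 4.68, and 6.49 CPM in LP males and at 8.81, 10, 8.54, 9.13, and 6.54 CPM in NP males, so that LP male 5 and NP male 5 were almost equal while the groups did not overlap. The hour at which each kidney was taken was not given in the labels. *Igfbp1*, an insulin-repressed binding protein, was at 52.7, 8.89, 0.580, 17.3, and 18.7 CPM in LP males and at 3.83, 4.38, 7.06, 3.33, and 0.950 CPM in NP males. It ran from the lowest to the highest value of all 10 within the LP group (log2 fold change 2.32, SE 0.78, exact permutation, 2-sided p = 0.151). The insulin and IGF list had 0 higher without LP male 1, 3 without LP male 3, and 2 without NP male 2.

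Of the 54 lists with at least 5 tested genes, 11 had a median above 0.2, 5 had a median below -0.1, and 33 lay from -0.1 to 0.1. In 26 of the 54, more than 5% of genes were called higher, and in 10 more than 5% were called lower. A share above that of all genes was thus common among the lists. The lists share members, and 3 held a DEG. Renin-angiotensin-aldosterone, prostaglandin, endocytosis and lysosome, and p53 lists had 0 genes called of 12, 19, 30, and 20.

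**Figure D5:**
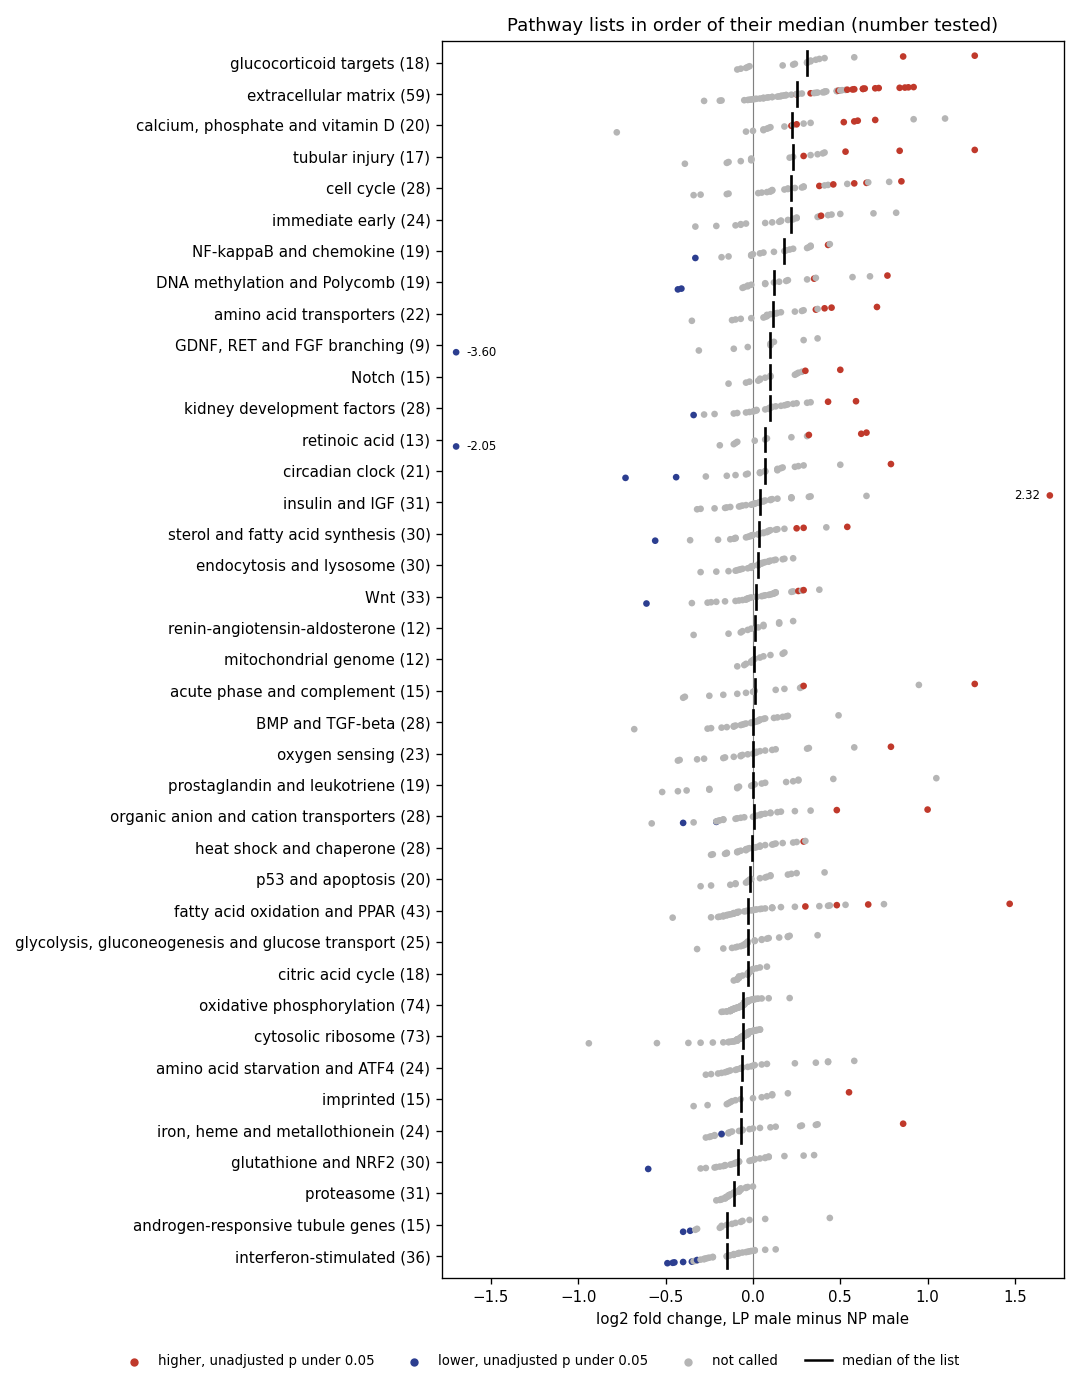
Log2 fold change of each tested gene in lists of development, metabolism, and stress, in order of their medians (black lines), with points beyond 1.7 drawn at the edge with their value. The matrix, calcium, and cell cycle lists have their red points, higher at an unadjusted p under 0.05, on the right, and the interferon list has its 6 blue points on the left.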

How the data were processed

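RNA of 10 male kidneys, 1 library per mouse, was analysed. Per the methods, reads were quality filtered and adapter trimmed and then mapped with STAR to GRCm39 with GENCODE vM36, and the authors deposited the raw counts of reads per gene. The unstranded count column was used. Totals of reads not on a single gene, 28.6% to 30.8% of each library, were left out. Of 78239 genes, 78168 were matched by Ensembl ID to GENCODE vM39 on GRCm39 for names, types, and positions.

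Genes with at least 10 counts in each of the 10 libraries were tested with edgeR 4.0.16 (R 4.3.3): TMM factors, quasi-likelihood test, Benjamini-Hochberg adjustment over all genes tested. The common biological coefficient of variation was 0.204. Single genes were also tested by exact permutation over the 252 assignments of 5 against 5, on log2(CPM + 1). With no label of the litter, p-values measure the spread between these mice. The fit was tested on simulated data. Replicate numbers were checked for pairing: the correlation of same-numbered libraries was -0.266 to 0.274 (median -0.134), so samples were not paired.

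The 64 gene lists (1336 genes) and the comparison were chosen with earlier results of these data known, and no list was given a test. Genes named are the DEGs, the 8 higher and 8 lower genes with the smallest p among those whose groups do not overlap, up to 4 called genes per list, up to 2 of the most abundant genes per kb of exon in lists with none called, genes the study lists for males, and called neighbors of a DEG within 500 kb. A few others were picked with their values in view. Some genes that this rule names are not reported here. The alternatives comprised 3 count filters, DESeq2 1.42.0 size factors and Wald test, TMM without mitochondrial and the 10 most abundant genes, limma-voom with quality weights (limma 3.58.1), all 4 groups in 1 model, a replicate block, a composition term, 1 surrogate variable (sva 3.50.0), and each library left out. Offsets for length and GC content and a fit without the 3 libraries with fat cell genes were added after the data were seen. Python 3.11.15 with pandas 2.3.3 and numpy 2.4.6 was used for lists and positions.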

Additional observations from a re-analysis of the deposited data

Results flagged for a closer look

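Within each diet group of 5, the highest or lowest library was compared with the rest for 90 genes, 180 groups in all, and 13 groups had a library whose gap to the next was more than 0.71 of the range. Chance gives about 1 group in 20.

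LP male 2 was the high library for *Ncam1* at 9.89 and *Timp1* at 5.26 CPM. LP male 3 was the high library for *Cyp4a14* at 36.1 and *Hspa8* at 2318 CPM, and the low one for *Podxl* at 101 CPM. LP male 4 was the high library for *Prxl2b* at 52.8 CPM and the low one for *S100g* at 134 CPM.

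Among NP males, NP male 5 was high for *Egln3* at 10.4 and *Foxd1* at 1.12 CPM, NP male 4 was high for *Cxcl12* at 92.1 and low for *Mcm4* at 3.20 CPM, NP male 3 was high for *Col3a1* at 36.3 CPM, and NP male 2 was high for *Tra2a* at 35.8 CPM. NP males 2 and 3 and LP male 4 are the libraries with fat cell genes.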

How the results depend on the processing

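There were 5 DEGs in the comparison as reported and 2 to 6 with 1 library left out. The count was 9 with no filter on low counts, 15 with DESeq2's Wald test, 1 with all 4 groups in 1 model, and 3 without the 3 libraries with fat cell genes, an alternative chosen after seeing the data. The 214 genes lower at an unadjusted p under 0.05 became 811 with no filter, 405 with limma-voom, 100 with all 4 groups in 1 model, and 358 with 1 surrogate variable, and the 292 higher genes became 1155, 478, 163, and 461. With 1 library left out, 169 to 336 were lower and 211 to 500 higher, the most without LP male 3. With the replicate number as a block, 2 genes were DEGs, 169 were lower, and 245 were higher, though the numbers did not pair the mice. No direction of a DEG changed. *Gfra1* was a DEG in 23 of 23 alternatives and *Aldh1a1* in 22, lost with all 4 groups in 1 model. *Dvl1*, *4122401K19Rik*, and *Tbc1d9* were lost with all 4 groups in 1 model, with the block, and without the 3 libraries with fat cell genes, and *Tbc1d9* with a composition term. Of 511 list medians recomputed under other settings, 18 moved by more than the SD between libraries, as did 20 of 630 with 1 library left out. The cause of these moves was not tested.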
